A study of Mus musculus with 26 samples.

Results

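The 41 genes described here encode transcription factors that set neural, endodermal and mesodermal fates. They were chosen by name, and each was examined for H3K4me3 peaks that overlapped its span plus 1 kb on each side in mm10. They stand against 21887 protein-coding genes, all placed by the same rule. By role, 23 are neural regulators, 7 endodermal and 11 mesodermal or skeletal. H3K4me3 is a histone mark of the start sites of active genes and of genes held ready. Many regulators of embryonic fate have start sites rich in CG dinucleotides. In stem cells such genes often carry H3K4me3 together with the repressive mark of Polycomb complexes, which keep them silent. These factors build brain, gut, heart, limb and skeleton.

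The series followed Ebf1-/- mouse progenitors, which lack the factor that specifies B cells. Early-B cells were these Ebf1-/- progenitors after EBF1 was put back from the vector MigR1-EBF1.ER. For 2 days they grew on OP9 stroma with IL-7, SCF and FLT3-L, and 4-O-Hydroxy-tamoxifen switched the fusion protein on. The labels do not state the age or strain of the animals or the culture of the progenitors, and they name no vector for the progenitors, which carry the same null genotype. Of 26 samples, 2 per group were H3K4me3 immunoprecipitates, and each group had 1 deposited peak list. A single list per group carries no replicate spread, so no difference between Early-B cells and progenitors was tested. Of 12 leukocyte marker genes, 12 had a peak in both lists, against 61.0% of all protein-coding genes. Their median span was 27700 bp, against 17200 bp over all genes. The depth behind a peak is unknown, because the lists hold no read counts.

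Start-site sequences show what kind of gene this is. RefSeq tables of GRCm38.p6, the assembly of mm10, list a start site for 29 of the 41 genes. The windows below run from 250 bases before to 50 bases after a start site, 5′ to 3′ on the gene's strand, with each CG dinucleotide in capitals. The first 3 belong to genes with a peak over the start site in both lists: Dlx1 at chr2:71529195-71529494 (plus strand), the first listed start of Lhx2 at chr2:38339031-38339330 (plus strand) and Foxa1 at chr12:57546062-57546361 (minus strand). Emx2, at chr19:59458440-59458739 (plus strand), had a peak there in Early-B cells only. The last 3 belong to genes with no peak in either list: Nkx6-1 at chr5:101664662-101664961 (minus strand), Sox1 at chr8:12395269-12395568 (plus strand) and the outermost of 4 starts of Otx2 at chr14:48667595-48667894 (minus strand).
Dlx1: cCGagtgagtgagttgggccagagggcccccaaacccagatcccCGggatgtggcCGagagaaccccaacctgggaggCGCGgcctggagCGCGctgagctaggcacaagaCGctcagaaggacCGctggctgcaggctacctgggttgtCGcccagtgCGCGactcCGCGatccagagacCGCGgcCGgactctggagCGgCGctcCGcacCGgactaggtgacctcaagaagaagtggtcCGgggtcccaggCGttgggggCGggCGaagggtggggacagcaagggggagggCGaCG
Lhx2: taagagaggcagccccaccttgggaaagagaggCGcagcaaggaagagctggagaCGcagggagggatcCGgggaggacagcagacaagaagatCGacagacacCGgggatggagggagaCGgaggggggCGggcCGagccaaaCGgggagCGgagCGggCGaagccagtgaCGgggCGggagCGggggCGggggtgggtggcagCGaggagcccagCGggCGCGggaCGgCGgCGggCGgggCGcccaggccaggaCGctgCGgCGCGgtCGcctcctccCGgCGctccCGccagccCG
Foxa1: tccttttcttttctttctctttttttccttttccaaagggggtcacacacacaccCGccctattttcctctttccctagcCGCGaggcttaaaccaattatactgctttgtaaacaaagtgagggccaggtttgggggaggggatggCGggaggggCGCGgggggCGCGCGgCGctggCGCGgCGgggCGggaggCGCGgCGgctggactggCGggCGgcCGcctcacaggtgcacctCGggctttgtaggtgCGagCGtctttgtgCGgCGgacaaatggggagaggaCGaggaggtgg
Emx2: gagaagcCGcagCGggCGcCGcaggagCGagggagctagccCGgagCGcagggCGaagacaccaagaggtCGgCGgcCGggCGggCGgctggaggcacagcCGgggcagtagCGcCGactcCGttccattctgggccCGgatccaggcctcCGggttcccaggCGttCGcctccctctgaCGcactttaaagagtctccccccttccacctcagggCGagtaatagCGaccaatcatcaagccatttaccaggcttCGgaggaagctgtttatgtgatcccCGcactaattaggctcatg
Nkx6-1: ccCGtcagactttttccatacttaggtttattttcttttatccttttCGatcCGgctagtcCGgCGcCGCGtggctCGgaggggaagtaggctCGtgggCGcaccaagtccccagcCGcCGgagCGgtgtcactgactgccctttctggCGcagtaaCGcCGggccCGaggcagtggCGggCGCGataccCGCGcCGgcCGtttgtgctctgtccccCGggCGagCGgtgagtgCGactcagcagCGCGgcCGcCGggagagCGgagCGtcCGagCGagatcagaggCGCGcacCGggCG
Sox1: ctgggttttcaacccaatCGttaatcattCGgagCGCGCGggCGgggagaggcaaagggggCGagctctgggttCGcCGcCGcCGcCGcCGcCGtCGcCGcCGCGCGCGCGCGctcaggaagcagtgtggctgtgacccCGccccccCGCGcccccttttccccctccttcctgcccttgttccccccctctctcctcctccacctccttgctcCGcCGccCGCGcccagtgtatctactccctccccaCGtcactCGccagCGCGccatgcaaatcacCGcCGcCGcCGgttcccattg
Otx2: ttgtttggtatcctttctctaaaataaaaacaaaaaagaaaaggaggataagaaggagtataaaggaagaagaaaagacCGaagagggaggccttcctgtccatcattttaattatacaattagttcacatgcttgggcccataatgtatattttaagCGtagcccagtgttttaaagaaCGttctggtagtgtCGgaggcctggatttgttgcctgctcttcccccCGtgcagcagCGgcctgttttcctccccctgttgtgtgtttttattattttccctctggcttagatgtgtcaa

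The CG content of marked and unmarked start sites overlapped in range, with a higher median over windows at those marked in both lists. Dlx1, Lhx2, Foxa1 and Emx2 had 27, 34, 26 and 26 CG dinucleotides in the window, while the unmarked Nkx6-1 and Sox1 had 40 and 37. Otx2 had 6 at its outermost start. Over the 38 windows of the 29 genes the median was 23, against 13 over 21263 windows of 17492 protein-coding genes. The 16 regulators with no peak within 1 kb of any start site had a median of 17 over 21 windows. The 6 regulators with such a peak in both lists had a median of 28 over 8 windows. Genes with several starts count more than once in these medians. Among the 21 windows, those of Otx2 had 11, 16, 8 and 6 and those of Foxa2 had 13, 23 and 12. Among the 8, those of Lhx2 had 34 and 29 and those of Pax6 had 18 and 16. All protein-coding genes without such a peak at any start had a median of 3, and those with one in both lists 21. A core of the EBF1 binding motif, TCCC and GGGA separated by any 2 bases, reads the same on either strand. Its matches numbered 0 in the 38 windows and were found in 0.959% of the 21263 windows of the same length. At so low a share, 38 windows are too few for 0 matches to set these genes apart.

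**Figure D1:**
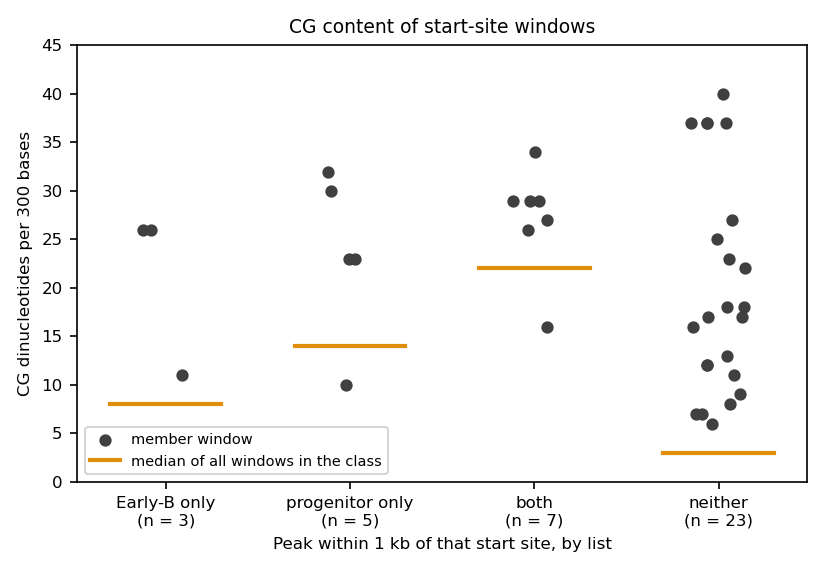
Number of CG dinucleotides in each 300-base start-site window of the 29 regulators with a listed start (points), by which list holds a peak within 1 kb of that start; bars give the median over all windows of protein-coding genes, classed in the same way window by window. The 23 windows with no peak in either list range between 6 and 40 (median 17), and the 7 with a peak in both range between 16 and 34 (median 29). Genes with several starts, such as Otx2 and Foxa2, give several points.

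Peaks were present at 27 of the 41 genes, with 23 marked in Early-B cells (69.0% of all protein-coding genes were) and 20 in progenitors (63.0%). In Early-B cells only, 7 genes had a peak (17.1%, against 8.0% of all protein-coding genes). In progenitors only, 4 had one (9.76%, against 2.01%). Peaks of both lists were found at 16 genes (39.0%, against 61.0%), and 14 had none (34.1%, against 29.0%). So fewer of these genes than of all genes were in both lists, and more were in a single list. The median span of the 41 genes was 6500 bp and that of all genes 17200 bp. Among the 17041 genes with a span within the range of the 41, 7.21% were marked in Early-B alone, 2.23% in progenitors alone, 65.9% in each list and 24.7% nowhere.

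**Figure D2:**
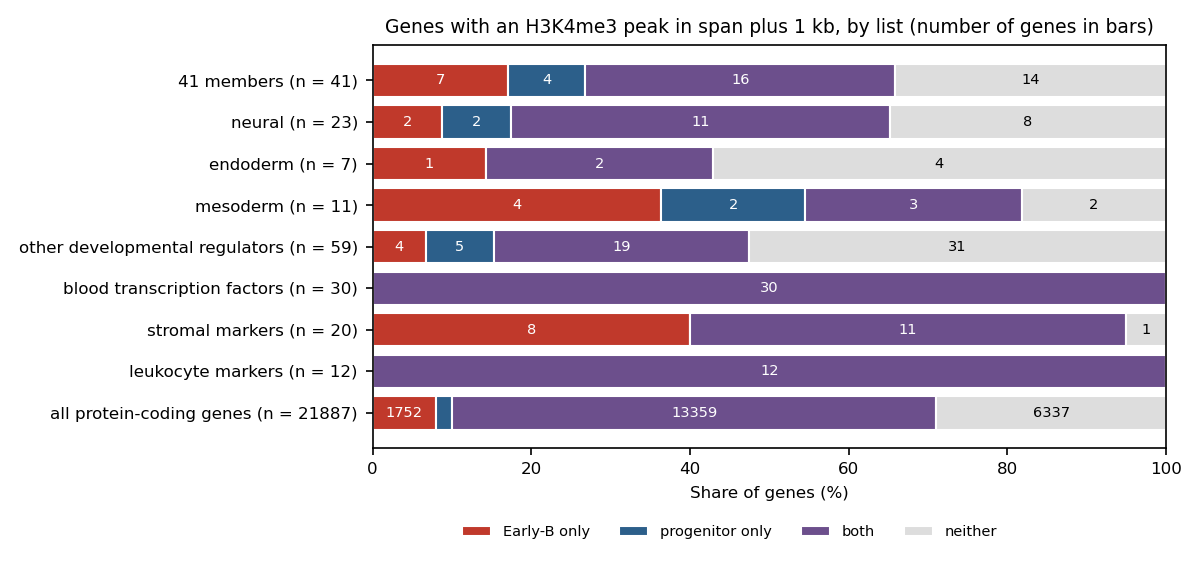
Share of genes (%) with a peak in Early-B only, in progenitors only, in both lists or in neither, for the 41 regulators, their 3 role groups, 4 comparison lists and all protein-coding genes; numbers in the bars are genes. All 30 blood transcription factors were in both lists, against 16 of the 41 regulators and 61.0% of all protein-coding genes.

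The strongest peaks at most of these genes scored low beside those of other genes. The caller's −log10 p measures how far a peak stands above its background, and the pileup is its read coverage. These values describe a peak within its own list and do not measure change between the lists. Taking each gene's strongest peak, the median −log10 p at regulators with a peak was 6.68 in Early-B cells and 5.26 in progenitors. Over all genes with a peak it was 102 in Early-B cells and 163 in progenitors. Peak by peak the gap was smaller: the 34 Early-B peaks at the 41 genes had a median −log10 p of 5.45, against 5.98 over that whole list. Their median pileup was 18.9, against 20.8. The 34 progenitor peaks had medians of 3.33 and 16.4, against 6.96 and 23.5 over their list. A −log10 p of at least 10 was reached at 7 of the 41 genes in Early-B cells (17.1%, against 56.8% of all genes) and at 6 in progenitors (14.6%, against 54.6%). Dlx1, Dlx2 and Lhx2 were the only genes of the 41 to do so in both lists. Keeping only peaks that reach 10 left 3 genes in both lists (51.7% of all genes), 4 in Early-B alone (5.07%), 3 in progenitors alone (2.87%) and 31 unmarked (40.3%). At Neurog1, Neurog2 and Tbx5 every peak had a q, the caller's false discovery rate, above 0.05. Of the 16 genes in both lists, 8 remained so at a q of at most 0.05 (57.0% of all genes) and 7 at a q of at most 0.01 (56.1%). With the lists cut to equal length by −log10 p, 8 genes were in progenitors alone (3.78% of all genes).

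**Figure D3:**
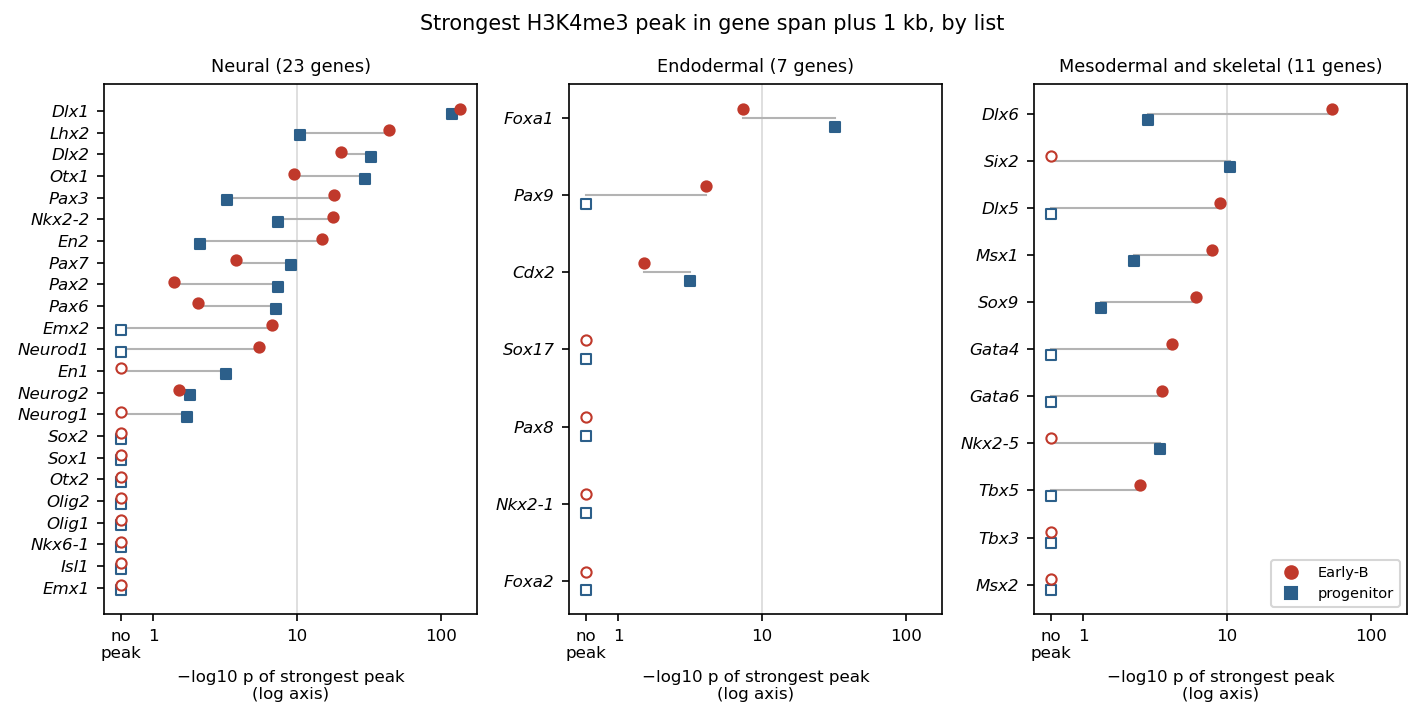
The authors' −log10 p (log axis) of the strongest peak at each of the 41 genes, by role; circles are Early-B, squares progenitors, open symbols mark a gene with no peak in that list and the grey line stands at 10. Dlx1 lies far above the rest in both lists, with 136 in Early-B and 120 in progenitors.

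Among the 23 neural regulators, 2 were marked in Early-B alone (8.7%, against 8.0% of all protein-coding genes). In progenitors alone 2 were marked (8.7%, against 2.01%). Peaks of both lists were found at 11 (47.8%, against 61.0%), and 8 were unmarked (34.8%, against 29.0%). Dlx1 and its neighbour Dlx2, homeobox genes needed for forebrain interneurons, were marked at the start site in both lists. At Dlx1 the peak over the start site had a pileup of 130 and a −log10 p of 136 in the Early-B list, and 129 and 120 in the progenitor list. It measured 3276 bp in both lists, and the Early-B peak lay between 71528260 and 71531535 on chromosome 2, against 71528215 and 71531490 in progenitors. The peak also lies over the antisense gene Dlx1as, which cannot be told apart from Dlx1 here. At Dlx2 an Early-B peak of 4970 bp covered the whole gene with a pileup of 35.8, while progenitors had a peak of 2614 bp at the start site with 51.7 and one of 798 bp with 13.3. The −log10 p at Dlx2 reached 20.2 in Early-B cells and 32.6 in progenitors.

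Lhx2, a homeobox gene of forebrain and eye, was marked at both listed start sites in both lists. At its first start the Early-B peak ran 2187 bp with a pileup of 61.2 and 43.4 as −log10 p, while that of progenitors ran 1035 bp with 17.5 and 3.89. At its second start the Early-B peak ran 6200 bp with 53.8 and 34.8, and the progenitor peak ran 1047 bp with 28.9 and 10.5. The Early-B peaks there were longer and contained those of progenitors. The lncRNA genes Gm46736 and Gm27197 overlap these peaks. Otx1, a homeobox gene of the cortex, had nearly the same extent in both lists, 2698 bp in Early-B and 2737 bp in progenitors, at its higher-coordinate end. The pileup at Otx1 was 25.7 in Early-B and 48.4 in progenitors, and its −log10 p was 9.54 and 29.9 in these lists.

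**Figure D4:**
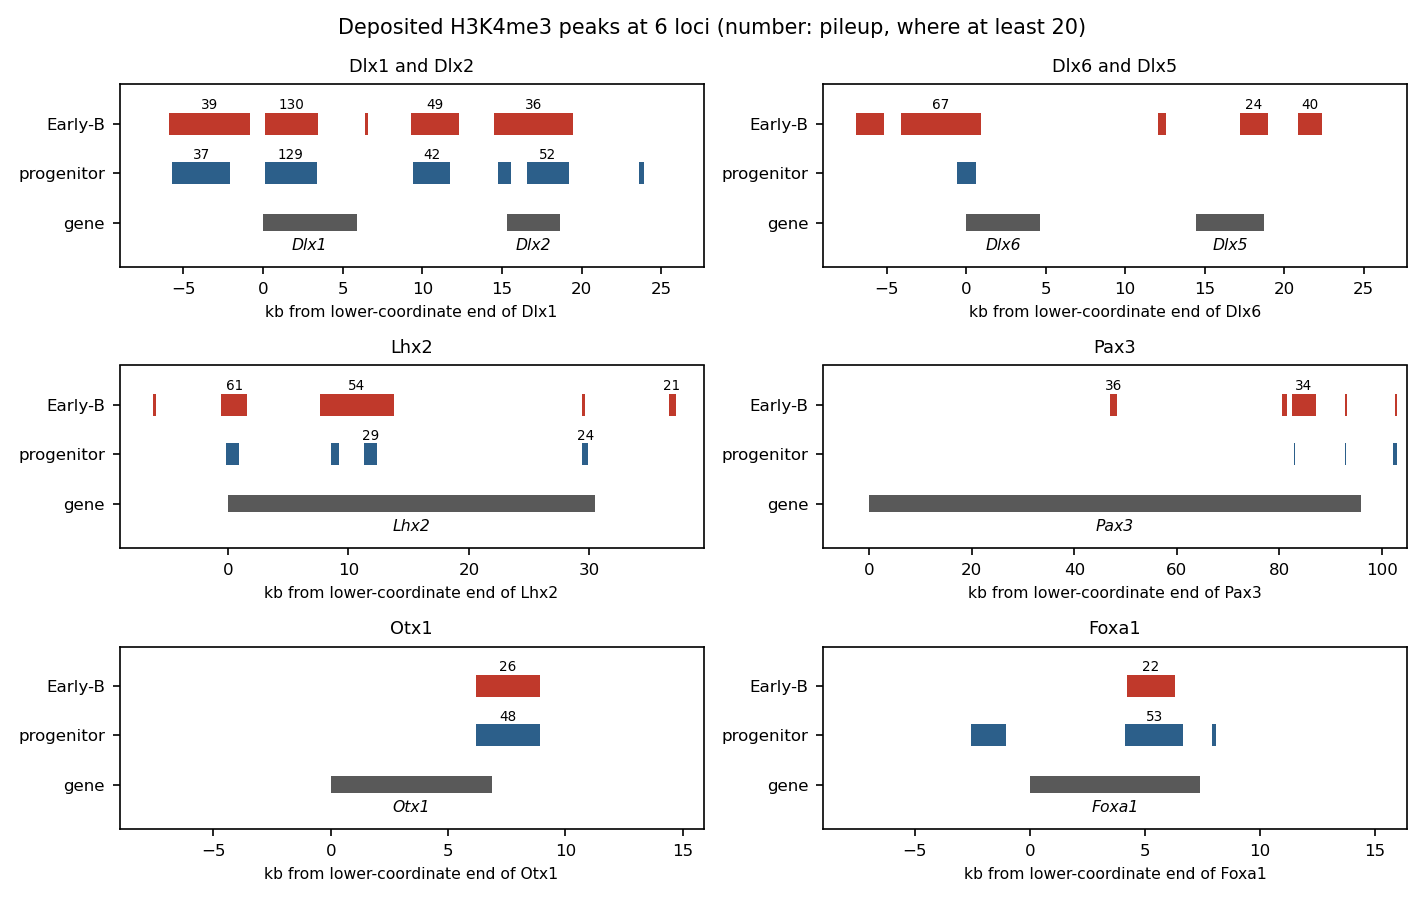
Deposited peaks of Early-B cells (top row) and progenitors (middle row) and gene spans (bottom row) at 6 loci, in kb from the lower-coordinate end of the first gene; numbers give the pileup of peaks that reach 20. Early-B peaks cover more at Dlx6 (5066 bp in Early-B, against 1223 bp in progenitors) and within Pax3 (7516 bp in Early-B, against 600 bp in progenitors), while Otx1 has nearly the same extent in both.

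Pax3, a factor of neural crest and muscle, had 4 Early-B peaks and 2 progenitor peaks, all inside the gene. The 2 strongest Early-B peaks had a −log10 p of 18.2 (1495 bp) and 17.3 (4754 bp). The first met no progenitor peak, and the second contained a progenitor peak of 367 bp with 3.25. En2, a gene of midbrain and hindbrain, had an Early-B peak of 1372 bp with 14.8, which contained a progenitor peak of 554 bp with 2.10. Nkx2-2, a gene of the ventral neural tube and pancreas, had an Early-B peak of 1277 bp with 17.7 near its lower-coordinate end, more than 7 kb from the listed start. Progenitors had a peak there too, of 1521 bp with 6.75, and another of 854 bp with 7.35 that lies closer to the start. So the strongest Early-B peaks at Pax3 and Nkx2-2 were inside the gene, and that of Nkx2-2 was not at the start site.

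The other neural Pax genes stayed below a −log10 p of 10 in both lists. Pax6, needed for eye and cortex, had a single Early-B peak of 200 bp with 2.06. It lay inside a progenitor peak of 1642 bp with 7.10 that covered the second start, and progenitors had another peak of 1618 bp with 5.48. Pax2, a kidney and eye factor, had a highest value of 1.39 in Early-B and 7.37 in progenitors. Pax7, a factor of muscle stem cells and neural crest, had 3.78 in Early-B and 9.17 in progenitors. At Pax7 no peak lay within 1 kb of the start, and at Pax2 only a progenitor peak did. Neurog2, a proneural factor, had 271 bp with 1.53 in Early-B and 2077 bp with 1.81 in progenitors, all with q above 0.05.

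Neural genes marked in a single list had low scores. Emx2, a cortical homeobox gene, had an Early-B peak of 3840 bp over its start site with a pileup of 21.97 and a −log10 p of 6.68, which also lies over Emx2os. Neurod1, which drives neurons and endocrine cells to differentiate, had an Early-B peak of 1086 bp with 5.42 that lies 792 bp upstream of the start and outside the gene. In progenitors only, En1, a relative of En2, had a peak of 239 bp with 3.23. Neurog1, another proneural gene, had progenitor peaks of 217 and 230 bp with 1.71 and 1.36. The 8 neural genes with no peak in either list were Sox1 and Sox2, factors of neural stem cells, Olig1 and Olig2 of oligodendrocytes and motor neurons, Emx1, Otx2, Nkx6-1 and Isl1.

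Of the 7 endodermal regulators, 1 was marked in Early-B alone (14.3%, against 8.0% of all protein-coding genes). In progenitors alone 0 were marked (2.01% of all protein-coding genes). Peaks of both lists were found at 2 (28.6%, against 61.0%), and 4 were unmarked (57.1%, against 29.0%). Foxa1, a pioneer factor of gut-derived organs, had 2116 bp over its start with a pileup of 22.3 and a −log10 p of 7.34 in Early-B. In progenitors it had 2519 bp with 53.2 and 32.4, and a further peak of 200 bp. Foxa1 lies inside the annotated span of Ttc6, so a peak there could belong to either. Cdx2, the intestinal homeobox gene, counted as both, but its Early-B peak (200 bp, 1.52) and its progenitor peak (2117 bp, 3.17) did not overlap, the only such gene among the 16. Pax9, a factor of pharyngeal pouch and tooth, had an Early-B peak of 2586 bp with 4.12, starting 230 bp past the listed start. Sox17, Foxa2, Nkx2-1 and Pax8 had no peak in either list.

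Of the 11 mesodermal and skeletal regulators, 4 were marked in Early-B alone (36.4%, against 8.0% of all protein-coding genes). In progenitors alone 2 were marked (18.2%, against 2.01%). Peaks of both lists were found at 3 (27.3%, against 61.0%), and 2 were unmarked (18.2%, against 29.0%). Of the 4 in Early-B alone, Gata4 and Gata6 are also factors of endoderm, so this share depends on the role given to them. The peak of Tbx5, also among the 4, had q above 0.05. Dlx6 and Dlx5 are neighbouring homeobox genes of skull, limb and forebrain. Dlx6 had the strongest peak of this group, with 5066 bp, a pileup of 66.9 and a −log10 p of 53.8 in Early-B, against 1223 bp, 15.1 and 2.83 in progenitors. It reaches the lower-coordinate end of Dlx6 and also lies over Dlx6os1 and Dlx6os2. Dlx5 had an Early-B peak of 1760 bp at its higher-coordinate end with a pileup of 24.3 and a −log10 p of 8.91, and no progenitor peak. The table used gives no start site for either gene.

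Sox9, the cartilage factor, had an Early-B peak of 5664 bp across most of the gene with a −log10 p of 6.12, and a progenitor peak of 501 bp with 1.33. Msx1, a gene of tooth and skull, had 1703 bp over its start with 7.84 in Early-B and 792 bp, ending 352 bp short of the start, with 2.25 in progenitors. The Early-B-only genes beside Dlx5 were Gata4 (566 bp, −log10 p 4.18) and Gata6 (2414 bp, 3.53), factors of heart and endoderm, and Tbx5 (1031 bp, 2.50) of heart and forelimb. The peak of Gata6 was at its lower-coordinate end, over Gata6os as well, and those of Gata4 and Tbx5 were inside the gene, away from both ends. In progenitors only, Six2, which maintains kidney progenitors, had peaks of 1068 bp with 10.6 and 381 bp with 1.69, both inside the gene. Nkx2-5, the heart factor, had a progenitor peak of 787 bp with 3.41. Tbx3 and Msx2 had no peak in either list.

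Stromal marker genes also differed between the lists, and OP9 stroma was present in the Early-B culture. Of 20 stromal markers, 8 were marked in Early-B alone (40%, against 8.0% of all protein-coding genes). Those in progenitors alone numbered 0 (2.01% of all genes), and 11 were in each list (55%, against 61.0%). Only Tagln was unmarked (5%, against 29.0%). The median span of the 20 markers was 28800 bp, against 17200 bp over all genes. Their summed peak length was greater in Early-B at 17 genes and in progenitors at 2, Thy1 and Pdgfrb. Of the 11 in both lists, 9 were longer in Early-B (66.2% of all genes in both lists). The total was 73690 bp in Early-B and 19464 bp in progenitors, while the whole lists had a ratio of 1.49. At Thy1 the strongest −log10 p was 1.57 in Early-B and 35.4 in progenitors, and at Pdgfrb 6.24 and 15.5. No progenitor peak was found at Col3a1, Cxcl12, Lox, Postn, Sparc, Twist1, Twist2 or Vcam1. The strongest peaks of the Early-B list at these markers reached a −log10 p of 44.1 at Acta2 and 35 at Sparc. Over the markers with a peak the strongest value ranged between 1.25 and 44.1 in Early-B and between 1.34 and 35.4 in progenitors, with medians of 7.21 and 3.48. Their part in the Early-B peaks at Dlx6, Dlx5, Sox9, Msx1 and the other regulators was not tested.

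Length was compared at the 16 genes with a peak in both lists, since it is in bp in each. Summed peak length was greater in Early-B at 9 of the 16 (66.2% of all genes in both lists). It was at least 2-fold greater in Early-B at 7 of the 16 (13.9% of all genes in both lists) and at least 2-fold greater in progenitors at 3 (2.91%). The 7 were Pax3 (12.5-fold), Sox9 (11.3), Dlx6 (4.14), Lhx2 (2.62), Dlx1 (2.61), En2 (2.48) and Msx1 (2.15). The 3 were Pax6, with 200 bp in Early-B and 3260 bp in progenitors, Cdx2, with 200 bp in Early-B and 2117 bp in progenitors, and Neurog2. At these 3 genes every Early-B peak had q above 0.05. Among the 7, the only progenitor peak at each of Sox9, Dlx6, En2 and Msx1 also had q above 0.05. With only peaks of q at most 0.05 kept, 8 genes stayed in both lists, of which 3 were at least 2-fold longer in Early-B and 0 in progenitors. With all peaks, the median log2 ratio of Early-B over progenitors was 0.31, against 0.16 over all genes in both lists. By covered bases of the window this median was 0.12 at the 16 genes and 0.12 over all genes. By that measure 5 of the 16 were at least 2-fold longer in Early-B and 3 in progenitors. The shares of 13.9% and 2.91% hold for summed length with all peaks. No such share over all genes was computed by covered bases or at a q of at most 0.05. With a flank of 5 kb the median was 0.17, against 0.19 over all genes. At Dlx1 the excess comes from a peak of 5059 bp that lies upstream, at Metap1d, and meets a progenitor peak outside the 1 kb flank. Counting only bases inside the window, Dlx1 had 3654 bp in Early-B and 3276 bp in progenitors, and Dlx6 had 1953 bp in Early-B and 1223 bp in progenitors. By the longest peak alone, the log2 ratio of Early-B over progenitors was 2.57 at Lhx2, against 1.39 for summed length, and -3.04 at Pax6, against -4.03. With peaks of q at most 0.05 it was 4.28 at Pax3, against 3.65. The lists as a whole covered 83.3 Mb in Early-B and 56.0 Mb in progenitors, a ratio of 1.49, and the peaks at the 41 genes 67703 bp and 36959 bp, a ratio of 1.83.

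**Figure D5:**
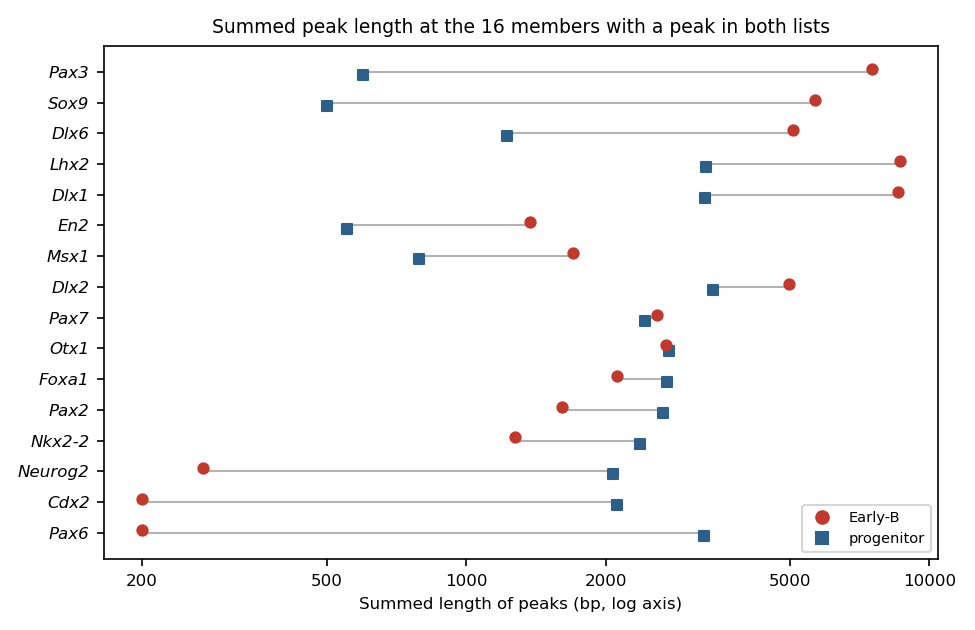
Summed length of the peaks (bp, log axis) at the 16 genes with a peak in both lists, ordered by the ratio of Early-B (circles) over progenitors (squares). Pax3 had 7516 bp in Early-B and 600 bp in progenitors at the top, and Pax6 had 200 bp in Early-B and 3260 bp in progenitors at the bottom.

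Each list had 34 peaks at the 41 genes. They had a median length of 1320 bp in Early-B and 806 bp in progenitors, against 1160 and 1230 bp over each whole list. A q above 0.05 was given to 11 of the Early-B peaks (32.4%, against 33.2% of that list) and to 12 of the progenitor peaks (35.3%, against 33.4%). Peaks of the other list overlapped 19 of the Early-B peaks (55.9%, against 49.6% of that list) and 20 of the progenitor peaks (58.8%, against 77.2%). No peak was shared between members. Of the peaks at genes with a listed start, 10 of 22 in Early-B and 11 of 28 in progenitors lay within 1 kb of a start. The same share over the peaks of all genes was not computed, so these 2 counts have no background beside them. Of the 29 genes with a listed start, 6 had a peak within 1 kb of it in both lists (20.7%, against 55.0% of all genes with one), 3 in Early-B only (10.3%, against 4.75%), 4 in progenitors only (13.8%, against 2.07%) and 16 in neither (55.2%, against 38.2%).

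A further 59 regulators of the same kind were placed in the same way. Of these, 4 were marked in Early-B alone (6.78%, against 8.0% of all protein-coding genes). Another 5 were marked in progenitors alone (8.47%, against 2.01%) and 19 in each list (32.2%, against 61.0%). The other 31 were unmarked (52.5%, against 29.0%). Twist1 and Prrx1 of this list are also stromal markers. Without them 3 of 57 were marked in Early-B alone (5.26%, against 8.0% of all protein-coding genes). Foxa3, a relative of Foxa1, had the strongest peak, which reached 196 in Early-B and 258 in progenitors as −log10 p, and Irx5 had 134 in Early-B and 135 in progenitors. The other distal-less genes were Dlx3, in progenitors only with 12.9, and Dlx4, with 16.3 in Early-B and 69.6 in progenitors. By contrast all 30 blood transcription factors were in both lists, against 61.0% of all protein-coding genes. Their median −log10 p was 99.5 in Early-B and 152 in progenitors, near the 102 and 163 of all genes with a peak. The median span of the 30 was 47100 bp, against 5180 bp for the 59 regulators.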

How the data were processed

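H3K4me3 ChIP-seq of Early-B cells and Ebf1-/- progenitors was used, as 1 peak list per group placed by its name. Tools named, per the submitters' processing notes, are Bowtie 1.1.2 and MACS 1.4.3, with mm10 and GRCh38 as builds and no roles stated. Chromatin was fixed in 1% formaldehyde, per the labels. The sources used here do not say if replicates were pooled. The deposited pileup is a signal of read coverage, and the deposited fold enrichment is the caller's ratio over background. The authors' −log10 p and −log10 q stand under damaged headers and were recognised by position and range. Length is end minus start, counting both bases.

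Peaks overlapping a gene's span plus 1 kb by at least 1 bp were assigned to it, with spans, start sites and sequences from RefSeq tables of GRCm38.p6. A peak may thus be assigned to several genes. All 41 symbols matched, and 29 had a start site. The steps were tested on simulated lists. Python 3.11.15, numpy 2.4.6, pandas 2.3.3 and matplotlib 3.10.9 were used. No test was run, because each group has 1 list. The members and lists were chosen with earlier results of these data known. Every member was accounted for, with full values where a peak was private, reached a −log10 p of 10 or differed 2-fold in length. Genes of the other lists were named after their values were seen. Windows of 0 and 5 kb, start sites, stricter thresholds, equal list lengths, a 200 bp overlap and exclusion of peaks reaching another gene were the alternatives.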

Additional observations from a re-analysis of the deposited data

How the results depend on the processing

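Class counts at the 41 genes depended most on the threshold. The number in both lists was 16 as reported, 8 at a q of at most 0.05, 7 at a q of at most 0.01, 3 at a −log10 p of at least 10 and 6 of 29 genes within 1 kb of a start site. Early-B-only genes numbered 7 as reported, 4 at a −log10 p of at least 10 and 3 within 1 kb of a start site. Progenitor-only genes numbered 4 as reported and 8 at equal list lengths, where 3.78% of all genes were in that class. At a −log10 p of at least 10, 31 genes were in neither list. At a q of at most 0.05, 8 genes kept peaks in both lists, 3 with at least 2-fold greater length in Early-B and 0 in progenitors. The share of all genes past that fold was not computed at this threshold. Fewer peaks pass these thresholds by construction. The other 40 values moved by at most 1.5-fold, with counts compared as counts and the median length ratio as a ratio. As a share, genes in neither list moved further, being 14 of 41 (34.1%) as reported and 16 of 29 (55.2%) within 1 kb of a start site. Of the values for single genes and background shares, 78 moved by at most that much and 14 by more. Dlx1, Dlx2 and Lhx2 stayed in both lists under every alternative, and Sox2, Emx1, Otx2, Nkx6-1, Isl1, Nkx2-1, Pax8 and Msx2 stayed in neither, while Sox1, Olig2 and Foxa2 gained a peak in 1 list at 5 kb. The lists carry no read counts, so a missing peak was not detected by the caller and is not shown to be absent. No paired analysis was possible because each group has 1 list.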

Other observations

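Peaks beyond the 1 kb flank gave more detail at some loci. Between Dlx1 and Dlx2 both lists had a further peak, with a pileup of 48.8 and a −log10 p of 28.5 in Early-B, against 42.4 and 24.2 in progenitors. Near Dlx5, outside its flank, Early-B had a peak with a pileup of 39.6 and a −log10 p of 18.9, and progenitors had no peak within 5 kb of Dlx5. The endodermal gene Foxa2, unmarked by the rule, had an Early-B peak 2843 bp away with a −log10 p of 9.31, while the nearest progenitor peak was 328500 bp away. Near Sox1 both lists had a weak peak at Sox1ot, 7215 bp away with 1.43 in Early-B and 4928 bp away with 4.94 in progenitors. Sox2 was the most isolated of the 14 unmarked genes, with the nearest peak 490231 bp away in Early-B and 567756 bp away in progenitors. Over the 14 the median distance to the nearest peak was 31775 bp in Early-B and 90019 bp in progenitors, in lists of unequal length.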
